A study of Mus musculus with 24 samples.

Results

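Among the 25697 probes of a mouse bead array, 100 were chosen because they gave a signal in brain and in heart that kidney did not reach. Total RNA of 3 tissues was hybridised to 24 Illumina arrays, 1 array per tissue and mouse. The mice were 4 animals heterozygous for a Kctd1 allele labelled with the substitution L27N and 4 wild type animals. All 8 were of the C3HeB/FeJ strain and 18.5 weeks old, so each tissue had 4 heterozygous and 4 wild type arrays. The design text speaks of 5 wild type mice, of which 4 are analysed here. The labels give no sex, no treatment and no sorting of cells, and the samples are taken here as whole tissue. The probes were chosen on the log2 of the deposited signal with both genotypes pooled. A probe was kept where its brain median and its heart median over 8 arrays each lay under 1 apart, which left 23303 probes. The gap of a probe was its lowest value over the 16 brain and heart arrays minus its highest value over the 8 kidney arrays, and the 100 kept probes with the largest gap are the members. Tissue differences of the members are therefore a description of what was selected, and carry no test.

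An annotation table paired 93 of the members with 1 gene each and gave none for 7, so the 100 probes stand for 82 named genes. Eef1a2 had 3 member probes. Dkk3, Tmx4, Rasl11b, Mfge8, Sparc, Schip1, Slc4a3, Ank1 and Psmb10 had 2 each. No probe was paired with Kctd1 in the annotation used here, and its level is not reported here.

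Neurons and heart muscle cells are both electrically excitable and long-lived. Both move ions across their membranes through voltage-gated channels and the sodium potassium pump, anchor these proteins to a skeleton of spectrin and ankyrin under the membrane, and use some protein isoforms that most other tissues do not make. The best known of these is the elongation factor encoded by Eef1a2, which takes over from its relative Eef1a1 in neurons and in heart and skeletal muscle after birth in mice. Kidney is built mainly of transporting epithelium, which uses the pump and a spectrin and ankyrin skeleton as well. Brain and heart also hold vessels, connective tissue and secretory cells.

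Detected neuron, cardiomyocyte and kidney tubule markers were highest in their own tissues, and podocyte markers were not. Of the 10 measured neuron marker genes, 7 were detected in brain, and all 7 were highest there. All 10 detected cardiomyocyte markers were highest in heart, and all 9 detected kidney tubule markers were highest in kidney. Of the podocyte markers, a kidney cell type, 2 genes were measured, and both were highest in heart. They summed to 210 to 237 in brain, 417 to 566 in heart and 243 to 265 in kidney. None of the 9 cell type lists held a member. The summed signal of the neuron markers was 13717 to 18653 in brain, 1364 to 1505 in heart and 1186 to 1251 in kidney, and that of the cardiomyocyte markers was 1364 to 1472 in brain, 120718 to 139635 in heart and 1296 to 1340 in kidney. Endothelial markers summed to 1935 to 2303 in brain, 5289 to 6415 in heart and 1685 to 2093 in kidney. The smooth muscle and fibroblast markers summed to 2510 to 2937 in brain, 12366 to 19738 in heart and 2386 to 2910 in kidney. The astrocyte markers summed to 12310 to 15669 in brain, 7449 to 8877 in heart and 2860 to 3210 in kidney. Their sum was above kidney in both other tissues, but their typical probe was not. Over the detected astrocyte probes, the median normalized log2 difference from kidney was 1.62 in brain and -0.62 in heart. Of the 4 kept and detected astrocyte probes, 0 had a gap above 0. The oligodendrocyte markers summed to 14230 to 20384 in brain, 1393 to 1486 in heart and 1229 to 1301 in kidney. The part of cell composition in the members' levels was not tested. In whole tissue, fewer cells of a type and less RNA per cell cannot be told apart. Kidney arrays were also dimmer as a whole, with a median raw signal of 102 to 106 in kidney against 109 to 118 in brain and 110 to 120 in heart. Every brain and heart array lay above every kidney array for 3506 of the 23303 kept probes (15%), and for 1658 of 23327 (7.11%) once arrays were shifted to a common median. After that shift, 97 of the 100 probes remained members.

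Promoter windows are shown for the members with the largest gap that have 1 entry in RefSeq's table on GRCm38.p6, since these genes share a tissue pattern and their start sites can be read side by side. Each window runs from 250 bases before to 50 bases after the annotated start, 5′ to 3′ on the gene's strand. Capitals mark every match, on either strand, of 4 short promoter motifs. The GC box, bound by factors of the Sp family, was searched as GGGCGG. The box bound by the nuclear factor NF-Y was searched with the letters CCAAT. The E-box, bound by helix-loop-helix factors, was searched in the form CAGCTG. The TATA box, which places the start of transcription, was searched with the letters TATAAA. The windows are Eef1a2 at chr2:181156966-181157265 (minus strand), Fxyd6 at chr9:45369935-45370234 (plus strand), Sptb at chr12:76710498-76710797 (minus strand), Ank at chr15:27466427-27466726 (plus strand) and Ptgds at chr2:25469700-25469999 (minus strand).
Eef1a2: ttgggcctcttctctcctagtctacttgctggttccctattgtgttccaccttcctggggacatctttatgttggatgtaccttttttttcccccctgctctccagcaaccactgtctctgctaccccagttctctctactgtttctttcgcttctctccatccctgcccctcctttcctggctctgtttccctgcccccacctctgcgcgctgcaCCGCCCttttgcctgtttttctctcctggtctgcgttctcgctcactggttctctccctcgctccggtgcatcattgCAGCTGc
Fxyd6: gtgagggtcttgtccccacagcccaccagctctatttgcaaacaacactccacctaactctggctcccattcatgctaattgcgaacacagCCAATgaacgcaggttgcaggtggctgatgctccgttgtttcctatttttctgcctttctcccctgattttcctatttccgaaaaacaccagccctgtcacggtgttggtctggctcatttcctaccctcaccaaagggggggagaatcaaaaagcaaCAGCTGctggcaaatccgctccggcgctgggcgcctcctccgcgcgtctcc
Sptb: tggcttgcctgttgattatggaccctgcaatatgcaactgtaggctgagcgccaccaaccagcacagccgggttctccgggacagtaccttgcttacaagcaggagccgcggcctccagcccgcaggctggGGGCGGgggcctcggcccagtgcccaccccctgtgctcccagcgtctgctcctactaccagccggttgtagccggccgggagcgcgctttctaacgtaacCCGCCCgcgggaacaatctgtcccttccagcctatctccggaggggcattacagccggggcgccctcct
Ank: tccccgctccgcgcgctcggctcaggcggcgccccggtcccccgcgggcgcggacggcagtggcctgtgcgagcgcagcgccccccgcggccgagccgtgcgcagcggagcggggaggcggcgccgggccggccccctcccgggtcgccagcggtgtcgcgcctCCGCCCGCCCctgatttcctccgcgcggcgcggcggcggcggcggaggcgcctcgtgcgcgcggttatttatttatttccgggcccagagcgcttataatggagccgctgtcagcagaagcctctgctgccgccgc
Ptgds: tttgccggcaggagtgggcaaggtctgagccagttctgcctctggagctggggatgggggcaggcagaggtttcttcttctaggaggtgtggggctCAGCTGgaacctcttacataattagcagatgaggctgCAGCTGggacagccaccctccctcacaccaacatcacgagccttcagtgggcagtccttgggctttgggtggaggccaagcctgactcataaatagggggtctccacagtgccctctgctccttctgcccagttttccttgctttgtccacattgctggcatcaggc

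The windows were unlike each other in base composition. Ank had 78% G and C with 53 CpG dinucleotides in the 300 bases, and Sptb had 65.7% with 21. The Ptgds window had 57.7% G and C but 2 CpG dinucleotides, and Eef1a2 had 55% and 8. No TATA box match lay in any of them. By the first base of the match, Eef1a2 had 1 GC box at -34 and 1 E-box match at 44, counted from the start site. Fxyd6 had a CCAAT box at -159 and an E-box match at -1, and Ptgds had E-box matches at -154 and -117. The GC boxes of Ank, at -86 and -82, overlap each other. A MEF2 site, the sequence bound by a muscle and neuron regulator family, matched in 0 of the 107 windows available for 66 of the 82 member genes, against 1.86% of all 32851 windows in the table. GC boxes matched in 63.6% of the members' windows and in 35.7% of all windows, CCAAT boxes in 30.8% and 37.4%, CAGCTG in 16.8% and 16.3%, and TATAAA in 7.48% and 13.6%. The median window had 60.3% G and C and 16 CpG dinucleotides for the members, and 52.7% and 7 over the table. A gene with several starts enters with several windows, so these shares describe the windows and were not tested. All members were detected in brain and heart, while the windows of the table were not limited to genes detected here. The 2 sets therefore differ in more than the tissue pattern. A missing match says only that the letters are not in the window.

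The 100 gaps were unevenly spread. They ran from 0.95 to 5.09 log2 units with a median of 1.27. Of the members, 12 had a gap of 2 or more, 19 lay between 1.5 and 2, and 69 lay under 1.5. All 100 were detected (detection p under 0.05) on every brain and every heart array. In kidney, 79 were detected on all 8 arrays, 11 on some and 10 on none, so for most members the kidney level was low but measured.

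Raw and normalized scales are used for levels. Raw log2 signal is the scale of the rule, and holds the background that every bead carries. Normalized values were background-corrected and quantile-normalized over the 24 arrays on the log2 scale, and differences between tissues given as folds are on that scale. For a probe detected on 0 kidney arrays the fold is a lower bound. It sets the brain or heart mean against the mean, per kidney array, of the lowest signal among detected probes or the probe's own signal, whichever was higher. Kidney signals of Fxyd6 (6.80 to 7.05 raw log2) and Igf2 (6.80 to 6.96) were dim as well, so their folds depend on the background correction. On the normalized scale the members lay 1.19 to 7.82 log2 units higher in brain than in kidney with a median of 2.64, and 1.13 to 7.78 higher in heart than in kidney with a median of 2.40. The same medians over all 14835 probes detected in a tissue were -0.01 and 0.03. Of the 12441 kept and detected probes, 23 were 3 or more higher in both tissues, and all of these were members. At a difference of 2 or more in both, 57 of 85 such probes were members.

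The widest gaps, 5.09 and 4.40, were those of a pair of probes for Eef1a2. It encodes the form of elongation factor that brings aminoacyl-tRNA to the ribosome in neurons and muscle, and its first probe (ILMN_2666990) read 11.83, 11.95 and 12.16 raw log2 units in brain (lowest, median and highest of 8 arrays), 12.45, 12.64 and 12.83 in heart, and 6.61, 6.69 and 6.74 in kidney. Its second probe (ILMN_2971559) read 11.10, 11.38 and 11.83 in brain, 12.00, 12.36 and 12.62 in heart, and 6.60, 6.65 and 6.70 in kidney. Its last probe (ILMN_2645171) read 8.81, 9.08 and 9.51 in brain, 9.54, 9.94 and 10.40 in heart, and 6.54, 6.63 and 6.70 in kidney. None of the 3 was detected on any kidney array, and all arrays of brain and heart were far from all of kidney. The first probe was at least 190-fold higher in brain and at least 184-fold higher in heart than in kidney, the second at least 113-fold and 153-fold, and the last at least 17.2-fold and 30.9-fold. All 3 probes had the higher raw median in heart, by 0.68, 0.98 and 0.86. On the normalized scale the first probe differed by 0.04 between brain and heart, with brain higher. Paip2b, an inhibitor of the poly(A)-binding protein, was the other member gene of protein synthesis, with a gap of 1.02.

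Ion transport and excitability gave 7 member probes of 6 genes. Fxyd6, a small membrane protein that modulates the sodium potassium pump, read 10.76, 10.83 and 11.20 in brain, 10.36, 10.59 and 10.91 in heart, and 6.80, 6.93 and 7.05 in kidney. It was 5.32 ± 0.26 log2 units higher in brain and 4.74 ± 0.27 higher in heart than in kidney on the normalized scale (SD over 8 mice), or 40.1-fold and 26.8-fold, and it was the only member among the 7 measured genes of the pump's subunit and FXYD list. Lynx1, a membrane-anchored modulator of nicotinic acetylcholine receptors, read 10.52, 10.65 and 10.71 in brain, 10.29, 10.39 and 10.74 in heart, and 7.00, 7.07 and 7.14 in kidney. In raw signal the groups of both genes left kidney far below while brain and heart overlapped. On the normalized scale every brain array lay above every heart array for both. Fxyd6 ran from 10.82 to 10.94 in brain and from 10.15 to 10.49 in heart. Lynx1 ran from 10.35 to 10.68 in brain and from 10.02 to 10.26 in heart. Ank, which exports pyrophosphate and ATP and is not an ankyrin, had a gap of 2.36 and was 18.2-fold higher in brain and 11.8-fold higher in heart. Scn4b, an auxiliary subunit of voltage-gated sodium channels, had a gap of 1.26, with folds of 4.66 in brain and 3.29 in heart. Cacna2d1, an auxiliary subunit of voltage-gated calcium channels, was detected on 0 kidney arrays and was at least 7.27-fold higher in brain and at least 6.86-fold higher in heart. Slc4a3, the chloride and bicarbonate exchanger of brain and heart, had 2 member probes with gaps of 1.17 and 1.08, both with the higher median in heart.

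Auxiliary subunits and modulators made up most of this group, and no pore-forming subunit of a voltage-gated channel was a member. On the list of voltage-gated ion channels, 22 of the 30 probes that passed the brain and heart condition and were detected in a tissue had a gap above 0, against 25.5% of all 12441 such probes. Many of these gaps were close to 0, and the smallest was 0.004. Its largest gaps outside the members were those of both Kcnh2 probes, a potassium channel of cardiac repolarization, at 0.83 and 0.60, and of a Kcnip2 probe at 0.37. For the first Kcnh2 probe, brain was 2.08 and heart 2.59 higher than kidney on the normalized log2 scale. Over the list's detected probes, the median difference from kidney on that scale was 1.38 in brain and 0.45 in heart. Heart was not above kidney there for some of the 22 probes. A gap is the rule's own measure, taken on raw signal, where kidney arrays were dimmer. The shares of gaps above 0 in this and later lists are therefore a description and carry no test. By the same count, calcium handling (5 of 19) and the dystrophin complex (2 of 8) lay near the share of all probes. Kctd and AP-2 genes (4 of 18) and gap and adherens junctions (2 of 13) lay below it. Shares were higher for microtubules (11 of 24), creatine kinase and glycolysis (6 of 12) and MAPK and other kinases (5 of 13). The same held for the pump (3 of 8), lipid transport (3 of 4), myelin (3 of 5) and chaperones (2 of 4). Vesicle release had 2 of 2.

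Membrane skeleton and cytoskeleton gave 9 probes of 7 genes with a median gap of 1.43. Sptb, the beta spectrin of red cells that is also made in brain and muscle, read 10.23, 10.34 and 10.67 in brain, 9.95, 10.02 and 10.27 in heart, and 6.65, 6.74 and 6.80 in kidney. It was detected on 5 of 8 kidney arrays, and no fold is given because its kidney signal lay near the limit of detection. Ank1, the ankyrin that links spectrin to membrane proteins, had 2 member probes, both detected on 0 kidney arrays. The probe ILMN_2715601 read 8.72, 8.78 and 9.10 in brain, 8.47, 8.65 and 8.97 in heart, and 6.62, 6.67 and 6.74 in kidney, at least 13.1-fold and 11.6-fold higher. The list of blood and immune cell markers names globins of red cells, and 4 of its 7 genes were measured. It summed to 9324 to 12671 in brain, 20620 to 24653 in heart and 6359 to 12006 in kidney, so the brain and kidney ranges overlapped. Over its 3 detected probes, the median normalized log2 difference from kidney was -0.61 in brain and 2.45 in heart. The part of red cell RNA in Sptb and Ank1 was not tested. On the list of actin, spectrin and ankyrin genes, 3 of 48 probes were members and 12 of the 22 kept and detected probes had a gap above 0, the smallest at 0.035. The share over all kept and detected probes was 25.5%. Schip1, which binds ankyrin at nodes and initial segments of axons, read 9.36, 9.70 and 10.37 in brain, 9.68, 10.09 and 10.23 in heart, and 6.95, 7.06 and 7.22 in kidney at its first probe, and its second had a gap of 1.07. Map7d1, a microtubule-associated protein, had a gap of 2.62 and was higher in heart than in brain by 0.70 raw. Tuba4a, an alpha tubulin, Flot1, a membrane raft protein, and Tnnt1, the slow skeletal form of troponin T, had gaps of 1.24, 1.31 and 0.98. Tnnt1 varied most among mice in kidney, with an SD of 0.53 over 8 arrays on the normalized scale.

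Kinase and G protein signalling gave 13 probes of 12 genes with a median gap of 1.21. Prkar1a, a regulatory subunit of protein kinase A, read 11.27, 11.38 and 11.67 in brain, 11.56, 11.83 and 12.11 in heart, and 8.84, 8.99 and 9.33 in kidney. Pkia, the peptide inhibitor of the same kinase, read 10.82, 11.03 and 11.28 in brain, 10.73, 11.03 and 11.26 in heart, and 8.54, 8.63 and 8.96 in kidney. Both were clearly measured in kidney, and the folds were 5.21 in brain and 5.28 in heart for Prkar1a and 5.15 and 4.03 for Pkia. Akap12, which anchors protein kinase A, had a gap of 0.97. Further members were Ppp1r2, an inhibitor of protein phosphatase 1, at 1.66, the Ras-like Rasl11b with both probes at 1.65, the phosphoprotein adaptor Ywhag at 1.51, the kinases Nuak1 at 1.21, Csnk1e at 1.05 and Snrk at 0.95, the ephrin receptor Ephb1 at 1.13 and the orphan receptor Gpr22 at 0.96. On the list of G protein and cyclic AMP genes, 2 of 24 measured genes were members, and 12 of 15 kept and detected probes had a gap above 0, against 25.5% of all such probes. The smallest of these gaps was 0.001, and the largest outside the members were those of the anchoring protein Akap6 at 0.88 and of Prkaca, a catalytic subunit of the kinase, at 0.78.

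Energy metabolism and mitochondria gave 9 genes with a median gap of 1.12, and 7 of the 9 had the higher raw median in heart. Pkm, the pyruvate kinase of muscle and brain, read 10.93, 11.28 and 11.54 in brain, 11.15, 11.41 and 11.58 in heart, and 8.32, 8.57 and 8.73 in kidney, a fold of 6.76 in brain and 5.96 in heart. Brain and heart overlapped for Pkm, and kidney did not reach either. Pfkm and Pfkl, subunits of phosphofructokinase, had gaps of 0.95 each, and Pfkfb2, which sets the level of that enzyme's activator, had 1.01. Tmem65, a protein of the inner mitochondrial membrane, read 9.90, 9.96 and 10.25 in brain, 10.70, 10.92 and 11.10 in heart, and 7.95, 8.06 and 8.31 in kidney. Ppm1k, a mitochondrial phosphatase of branched-chain amino acid breakdown, had a gap of 1.24, the fission protein Dnm1l had 1.14, the pyrophosphatase Ppa1 had 1.12 and Ttc19, which acts on respiratory complex III, had 1.06. None of the 24 probes for tissue isoforms of oxidative phosphorylation was a member, and 0 of the 7 that were kept and detected had a gap above 0, against 25.5% of all such probes.

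Secreted and matrix proteins formed 14 probes of 11 genes. Igf2, the fetal growth factor that is still made in the coverings of the adult brain, read 10.38, 10.48 and 10.86 in brain, 10.05, 10.40 and 10.67 in heart, and 6.80, 6.87 and 6.96 in kidney, 34.3-fold and 25.6-fold higher. Ptgds, the prostaglandin D synthase of the brain's coverings and of heart, read 8.68, 9.52 and 9.89 in brain, 8.75, 9.09 and 9.51 in heart, and 6.57, 6.60 and 6.68 in kidney. Ptgds was detected on 0 kidney arrays, at least 21.4-fold higher in brain and at least 16.0-fold higher in heart, and its normalized SD over the 8 brain arrays was 0.47, against a median of 0.13 over the members. Dkk3, a secreted relative of the Dickkopf inhibitors of Wnt signalling, read 9.65, 9.89 and 10.22 in brain, 10.08, 10.31 and 10.43 in heart, and 7.02, 7.26 and 7.59 in kidney at ILMN_2852957. Its second member probe, ILMN_2746556, had a gap of 1.56. Cst3, the protease inhibitor cystatin C, read 12.10, 12.37 and 12.76 in brain, 12.31, 12.45 and 12.85 in heart, and 10.07, 10.25 and 10.60 in kidney. Cst3, Tecr and the first Mfge8 probe had the highest kidney levels of all members, with kidney medians of 10.25, 10.02 and 9.96, so a member need not be scarce in kidney. Timp2, an inhibitor of matrix metalloproteinases, had a gap of 1.71, and the matrix glycoprotein Sparc had 1.34 and 1.06. The lipid carriers Apoe and Pltp had gaps of 1.27 and 1.06, the procollagen protease Bmp1 had 1.16 and the cytokine-like Fam3c had 0.97. Mfge8, a secreted bridge to dying cells, had gaps of 1.37 and 1.18.

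Regulators of transcription and RNA were 14 genes, and 10 of them had the higher raw median in brain. Satb1, which organizes chromatin loops, read 9.93, 10.10 and 10.46 in brain, 9.00, 9.24 and 9.39 in heart, and 6.84, 6.97 and 7.09 in kidney. Apbb1, an adaptor of the amyloid precursor protein that also acts in the nucleus, read 9.58, 9.85 and 10.22 in brain, 8.84, 9.05 and 9.28 in heart, and 6.94, 7.01 and 7.08 in kidney. For both, the 3 tissues did not overlap. Celf2, a splicing regulator, read 9.27, 9.42 and 9.69 in brain, 8.80, 9.14 and 9.42 in heart, and 6.86, 6.94 and 7.09 in kidney. Tcf4, a basic helix-loop-helix factor, had a gap of 1.68, and the Notch target Hey1 had 1.56. The repressor Zeb1 had 1.44, the nuclear receptor corepressor Hr had 1.43, the chromatin protein Morf4l1 had 1.36, the splicing regulator Mbnl2 had 1.34 and Nfix had 1.32. Zfpm1 and Zfpm2, cofactors of GATA factors, had gaps of 1.27 and 1.12, the cold shock domain protein Csdc2 had 1.17 and Klf7 had 1.04. None of the 20 probes of MEF2 factors and their partners was a member. Of the 14 kept and detected, 9 had a gap above 0, against 25.5% of all such probes, and these gaps ran from 0.033 to 0.67, the value of Srf.

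Membrane proteins of the endoplasmic reticulum were Reep5 and Reep1, which shape its tubules, at 1.82 and 1.18, the thioredoxin-like Tmx4 with both probes at 1.49, Selenon at 1.01 and Wfs1 at 0.99. Reep5 read 10.11, 10.41 and 10.53 in brain, 10.39, 10.70 and 11.03 in heart, and 7.95, 8.04 and 8.28 in kidney. Protein turnover gave Dcaf5 and Pja2, parts of ubiquitin ligases, at 1.43 and 1.16, and the immunoproteasome subunit Psmb10 at 1.19 and 0.95. The remaining 20 probes were put in no role. They were Cerk, Sccpdh, Tmem201, Cygb, Rusc2, Jpt1, Prepl, Tspan17, Tecr, Zfp46, Gtpbp2, Rgcc and Bhlhb9, with gaps of 1.01 to 1.45, and 7 unnamed probes with gaps of 0.98 to 1.53. Among the unnamed, ILMN_2722716 was detected on 0 kidney arrays and was at least 16.8-fold higher in brain and at least 8.12-fold higher in heart. Roles were given after the values had been seen, so the medians by role are a description. Those medians were 1.12 to 1.43, leaving out protein synthesis, whose 4 probes include 3 of Eef1a2.

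The brain and heart levels were matched only as closely as the rule demanded. By raw median 57 members were higher in brain and 43 in heart, and the differences ran from 0.97 higher in brain to 0.98 higher in heart. The largest differences toward brain were those of Pja2 at 0.97, of the Tmx4 probe ILMN_1232084 at 0.97 and of Prepl at 0.92, and those toward heart were -0.98 for the Eef1a2 probe ILMN_2971559, -0.97 for Tnnt1 and -0.97 for the Slc4a3 probe ILMN_2675029. On the normalized scale 13 members were 1 or more higher in brain and 4 were 1 or more higher in heart, so 17 no longer met a limit of 1. With the rule applied to normalized values, 65 of the 100 probes stayed members. With medians within 0.5 in place of 1, 61 stayed, and with no condition on brain and heart 66 stayed.

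The rule was applied to other probes of the member genes too, so their values are a description and no independent reading. Of the member genes, 29 had a probe outside the members, 43 probes in all. Of these, 30 had a gap above 0 and 13 had a gap at or below 0. On all brain and heart arrays 27 were detected, and 7 were detected on 0 arrays of any tissue. Both Pfkm probes outside the members had gaps of 2.42 and 2.21 and were left out because heart was higher than brain by 1.56 and 1.33. Rusc2, Pja2 and Jpt1 likewise had probes with gaps of 1.22, 0.35 and 0.74 that were over 1 apart between brain and heart. Ank1 had 5 probes. Besides its 2 members, ILMN_1236869 was detected on 8 heart arrays, 0 brain arrays and 1 kidney array, with raw medians of 6.74 in brain, 8.63 in heart and 6.69 in kidney, and ILMN_2609011 and ILMN_1254421 were detected on 1 and 0 of the 24 arrays. Probes of Ank1 therefore differed in tissue pattern as well as in signal.

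Around the limit of 100 the values were continuous. The last members were Pfkl at 0.954, Pfkm at 0.947 and the Psmb10 probe ILMN_2914843 at 0.946, and the first probes outside were Rtn2 at 0.946, St3gal5 at 0.945 and Vtn at 0.940. Rtn2, a reticulon, read a median of 8.02 in brain, 8.68 in heart and 6.81 in kidney.

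The same rule turned to another low tissue found fewer probes. With brain as the low tissue 590 of 23500 kept probes (2.51%) had a gap above 0, with a highest gap of 3.81, and with heart as the low tissue 327 of 23222 (1.41%), with a highest gap of 2.82. This order rested on the scale. With arrays at a common median the shares were 7.11% for low kidney, 4.00% for low brain and 2.77% for low heart, and on normalized values they were 4.16%, 6.06% and 4.20%.

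The rule itself favours probes with little spread over these arrays, so the spread between mice is a description. The median SD over 8 arrays on the normalized scale was 0.13 in brain, 0.11 in heart and 0.15 in kidney for the members, and 0.14, 0.15 and 0.19 over all detected probes. In each of the 8 mice the median member was higher in brain than in kidney, by 1.80 to 2.32 raw log2 units, and higher in heart than in kidney, by 1.52 to 2.22. In heterozygous mice the brain difference was 1.97 ± 0.16 and in wild type mice 2.10 ± 0.15 (SD, n = 4 each). The heart difference was 1.78 ± 0.29 in heterozygous mice and 2.00 ± 0.16 in wild type mice. On the normalized scale the median member stood in brain at 9.19 ± 0.05 for heterozygous mice and 9.16 ± 0.01 for wild type mice, at 8.94 ± 0.05 and 8.94 ± 0.04 in heart, and at 6.37 ± 0.02 and 6.34 ± 0.11 in kidney. No test was made of these medians, since the members were chosen together.

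Genotype was not used to choose the members, and it was tested probe by probe. The substitution lies in Kctd1, which encodes a nuclear BTB-domain protein. In each tissue, probes detected on at least 4 of its 8 arrays were fitted with limma after normalization within the tissue, and p-values were adjusted by Benjamini-Hochberg over all probes tested, with calls at an adjusted p under 0.05. In kidney 1 member of the 86 tested was called, against 30 of all 10976 probes tested (0.273%). In brain 0 of 100 members and 0 of all 12608 probes were called, and in heart 0 of 100 and 0 of 12004. The members left untested in kidney were detected on under 4 of its arrays.

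Dkk3 rose in heterozygous kidney. At ILMN_2852957 the raw signal was 170, 158, 192 and 187 in the 4 heterozygous kidneys, against 149, 141, 144 and 129 in the 4 wild type kidneys. All 4 heterozygous kidneys lay above all 4 wild type kidneys. The normalized values were 6.51, 6.36, 6.50 and 6.51 in heterozygous kidneys and 5.98, 5.95, 5.87 and 5.62 in wild type kidneys, a difference of 0.62 log2 units with an SE of 0.11 and an adjusted p of 0.0210 by limma. Calls were made for 30 of the 10976 probes tested in kidney (0.273%), and among the 86 members the count of 1 is this probe. The call was kept in 13 of 21 alternative settings and lost in 8, with adjusted p-values of 0.0115 to 0.150 and differences of 0.28 to 0.71. It was lost without heterozygous replicate 2, 3 or 4 and without wild type replicate 2 or 3, at adjusted p-values of 0.0554 to 0.0924. The signal in kidney was low, at 129 to 192 against array medians of 102 to 106.

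The second Dkk3 member, ILMN_2746556, read 147, 141, 165 and 180 in heterozygous kidneys and 150, 137, 135 and 135 in wild type kidneys. Its normalized difference was 0.32 with an SE of 0.12, and with an unadjusted p of 0.0199 and an adjusted p of 0.498 by limma it was not called. The groups overlapped through wild type replicate 1. A Dkk3 probe outside the members, ILMN_1224173, was detected on 0 kidney arrays and was not tested there. In brain ILMN_2852957 averaged 9.82 ± 0.02 in heterozygous and 9.74 ± 0.12 in wild type mice, and in heart 10.21 ± 0.23 and 10.16 ± 0.14 (SD, n = 4 each), and neither difference was called. The test of whether the genotype difference itself varied between tissues gave differences of 0.09 in brain, 0.05 in heart and 0.60 in kidney for this probe. Its unadjusted p was 0.000770 and its adjusted p 0.148 by limma, and it was not called. That fit took the 24 arrays as independent, although each mouse gave 1 array per tissue.

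Among the 86 members tested in kidney, 43 were higher and 43 lower in heterozygous mice, against 50.2% of all probes higher, and 8 had an unadjusted p under 0.05, against 8.52% of all probes. The groups did not overlap for 6 of them, against 4.58% of all probes. Dkk3 and Tmem65 were the 2 with heterozygous mice higher, and Lynx1, Zeb1 and both Mfge8 probes the 4 with heterozygous mice lower. Zeb1, a repressor of epithelial genes, had normalized values of 5.12, 5.26, 5.06 and 5.00 in heterozygous kidneys and 5.52, 5.41, 5.48 and 5.38 in wild type kidneys, a difference of -0.34 with an adjusted p of 0.275 by limma and of 0.151 to 0.949 over the alternatives. Sparc at ILMN_3136561 had 7.47, 7.17, 7.35 and 6.82 in heterozygous kidneys and 7.85, 7.83, 7.57 and 7.36 in wild type kidneys, a difference of -0.45 that was not called either. Both Mfge8 probes were lower in heterozygous kidneys, by -0.28 and -0.26, at unadjusted p-values of 0.0195 and 0.0204, and neither was called by limma.

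In brain, calls were made for 0 of 12608 probes (0%), so 0 of 100 members is the background too. The smallest adjusted p of a member was 0.511 by limma. An unadjusted p under 0.05 was found for 8 members, against 7.1% of all probes, and the groups did not overlap for 4 members, against 3.93%. Heterozygous mice were higher for 61 members, against 49.5% of all probes. Cygb, a globin of fibroblast-like and neuronal cells, had normalized values of 8.54, 8.70, 8.71 and 8.75 in heterozygous brains and 8.30, 8.43, 8.43 and 8.44 in wild type brains. Ywhag had 9.49, 9.56, 9.46 and 9.55 in heterozygous brains and 9.11, 9.29, 9.26 and 9.35 in wild type brains. The differences, 0.28 for Cygb and 0.26 for Ywhag, left no overlap between the genotypes but were not called. Toward wild type, Pfkm differed by -0.33 and Sparc at ILMN_3059326 by -0.21, both with overlap.

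In heart, calls were again made for 0 of 12004 probes (0%), with a smallest adjusted p of 0.927 among the members by limma. An unadjusted p under 0.05 was found for 3 members, against 4.75% of all probes, and the groups did not overlap for 5, against 2.58%. Heterozygous mice were higher for 57 members, against 49.2%. Fxyd6 had 10.69, 10.73, 10.58 and 10.53 in heterozygous hearts and 10.49, 10.38, 10.40 and 10.42 in wild type hearts. Psmb10 at ILMN_2757870 had 8.83, 8.83, 8.96 and 8.69 in heterozygous hearts and 8.50, 8.59, 8.67 and 8.68 in wild type hearts. The genotypes did not overlap for either, and the differences of 0.21 and 0.22 were not called. Zeb1 differed by -0.21 and Csdc2 by -0.17 in heart, without a call.

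Over all probes tested, the 5th to 95th percentile of the heterozygous minus wild type difference ran from -0.21 to 0.21 in brain, from -0.22 to 0.20 in heart and from -0.25 to 0.25 in kidney. Below that range lay 2 members in brain, 3 in heart and 6 in kidney, and above it lay 5 in brain, 2 in heart and 3 in kidney. Across the 3 tissues, 0 of 100 members had a genotype difference that varied between tissues at the adjusted threshold, against 47 of 14835 probes (0.317%), and 8 had an unadjusted p under 0.05, against 6.5%. With mouse as a block in that test, 0 of 100 members and 49 of 14835 probes were called.

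The place of an array among the 8 of its tissue, as the labels number them, was fitted beside genotype, since all 4 wild type mice are at places 1 to 5 and 3 of the heterozygous mice at places 6 to 8. Place was called for 1 member in heart, the Slc4a3 probe ILMN_2675026, whose signal rose by 0.11 log2 units per place with an adjusted p of 0.0221 by limma, against 1.22% of all probes. The other Slc4a3 member had a slope of 0.10 and an adjusted p of 0.0566. No member was called for place in kidney, against 1.28%, nor in brain, against 0.0317%. With place as a covariate, the Dkk3 difference in kidney was 0.68 with an adjusted p of 0.0364 by limma. Without the arrays at the first and the last place it was 0.64 and its adjusted p was 0.150.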

How the data were processed

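Total RNA of brain, heart and kidney was hybridised as biotin-labelled cRNA to Illumina mouse bead arrays, per the labels' protocols. The deposited values are mean bead intensities per probe on a linear scale, not normalized, with a detection p-value per array, per the file headers. GenomeStudio 2011.1 is named in the submitters' processing notes. A deposited table of normalized intensities, whose method is not given in the sources used here, served as an alternative. Gene names came from the platform annotation, updated by gene identifier, which named 23978 of 25697 probes with 1 gene each, 0 with several and 1719 with none.

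Membership was computed on log2 of the deposited intensity. Normalized values came from limma 3.58.1 (neqc: normexp background correction with an offset of 16, quantile normalization, log2) in R 4.3.3, over all 24 arrays for tissues and for the test across tissues, and within a tissue for genotype and place. Tables were made in Python 3.11.15 with pandas 2.3.3 and numpy 2.4.6. A tissue's tests took the probes that 4 or more of its arrays detected (p under 0.05), fitted with lmFit and eBayes, and adjusted by Benjamini-Hochberg. The genotype fit was tested on simulated data. The number of arrays limits the precision, and p-values measure the spread between these mice.

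The rule for naming took the 20 members of largest gap, those at the limit of 100, every member called for genotype and per tissue the 2 of smallest p in each direction, members of the gene lists, the 3 extremes each way between brain and heart, genes with several member probes, and the 3 brightest members overall and in kidney. Members named beyond it, and the roles, were chosen after their values were seen. The members and the gene lists were chosen with earlier results of these data known. Replicate numbers shared by heterozygous and wild type mice name different animals, so they do not pair the samples. The correlation of their deviations ran from 0.01 to 0.29 in kidney. Between the kidney and heart arrays of the same mouse it ran from -0.03 to 0.34, so this measure cannot tell paired from unpaired arrays. Alternatives covered background correction, scaling, filters, array order, leaving out each mouse and, for the test across tissues, mouse as a block. The gap of 1 member gene of the signalling group is not reported here.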

Additional observations from a re-analysis of the deposited data

Results flagged for a closer look

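In 84 groups of 4 or 8 arrays, 5 held an array far from its neighbours by Dixon's criterion, which chance meets in about 1 in 20 groups. In raw brain signal, wild type replicate 1 was highest for Eef1a2 at ILMN_2666990, at 12.16 against 11.98 for the next array. The same array was highest for Fxyd6, at 11.20 against 10.92, and for Sptb, at 10.67 against 10.43. The median member on that array was 9.69 raw and 9.14 on the normalized scale, where the 8 brain arrays ran from 9.14 to 9.24. For Cygb, the normalized value of wild type replicate 1 in brain was 8.30, below the next lowest of its group at 8.43. For Dkk3 at ILMN_2852957, heterozygous replicate 2 in kidney was lowest of its group at 6.36 against 6.50, and still above every wild type kidney.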

How the results depend on the processing

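The count of members called in kidney, 1 by limma, was 0 with normalization over all 24 arrays, with no detection filter and without the arrays of place 1 and 8, and ran from 0 to 1 when each mouse was left out. For Dkk3 these settings gave 0.60 (adjusted p = 0.0635), 0.62 (adjusted p = 0.0656) and 0.64 (adjusted p = 0.150), and the cause was not tested. With the replicate block, kidney kept 1 member, Dkk3 at an adjusted p of 0.0306 by limma. The authors' deposited value table gave Dkk3 a difference of 0.61 and an adjusted p of 0.0406. The other 11 named genotype differences kept their direction and stayed uncalled in all 21 alternatives. Place was called for 8 members with no background correction, against 1. Membership overlapped the 100 by 65 on normalized values, by 61 with medians within 0.5 and by 66 with no brain and heart condition. The median distance of the members from kidney was 1.95 raw log2 units, 2.46 on normalized values and 1.64 on quantile-normalized log2 signal. Leaving out the arrays of place 1 and 8, fitting array runs, and the alternatives for place and for the distance from kidney were chosen after seeing the data. Slide as a block was not run, since the files used here name no slide. Dim kidney signals limit the tests there, where 86 of the 100 members were tested.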
